A study of Mus musculus with 2 samples.

Results

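The collagen genes were the 44 of 28000 features whose symbol read Col, a number, a and a number in both libraries. By textbook family 11 of them were fibrillar chains, 8 were basement membrane chains (the type IV chains with Col15a1 and Col18a1), 2 anchor epithelium to its stroma (Col7a1 and Col17a1) and 23 were other collagens. The rule read symbols only.

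The study dissociated mouse prostate tumours with collagenase and TrypLE and prepared 3′ single-cell RNA libraries, in which each counted molecule carries a unique molecular identifier (UMI). There was 1 library from each of 2 genotypes. DoubleTg mice carried hHGFtg, H11hMET/+ and PB-Cre4, and their tissue was labelled prostatic adenocarcinoma. TripleTg mice carried the same alleles together with Ctnnb1L(Ex3)/+, whose recombination stabilises β-catenin, and their tissue was labelled prostatic carcinoma. The human HGF transgene is ubiquitous, whereas human MET and the β-catenin allele need Cre, which the probasin promoter drives in prostatic epithelium, so that stromal cells were not its target. The mice were of mixed C57BL/6 and C3H SCID background, and neither age nor the number of mice behind each library was given in the sources used here. With 1 library per genotype no difference between libraries had a replicate check, every interval given covers counting error only, and genotype cannot be told apart from mouse, dissection, dissociation or library. The hHGFtg level was 380 CPM, the UMIs of a gene scaled to 1000000 UMIs in all, in DoubleTg and 84.2 CPM in TripleTg, and that of hMETtg was 397 and 38.4 CPM. Reads counted at the 3′ end do not show the loss of exon 3 of Ctnnb1.

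Collagens are trimers of chains that assemble in the endoplasmic reticulum, are hydroxylated and chaperoned there, and are trimmed and crosslinked after secretion. Fibrillar collagens I, III and V form the fibres of the stroma and are made mainly by fibroblasts, and the type IV network with the multiplexins XV and XVIII forms the sheet on which epithelium and vessels rest. Collagen XVII spans the membrane of basal epithelial cells at hemidesmosomes, and collagen VII forms the anchoring fibrils beneath them. In the prostate this sheet lies between the basal cells and a stroma of fibroblasts and smooth muscle.

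The positions of all 44 genes were read from GENCODE release M21 on GRCm38. Type IV chains lie in head-to-head pairs, and for Col4a1 and Col4a2 the annotated starts, at bases 11312826 and 11312805 of chromosome 8, are 21 bases apart. Col4a3 and Col4a4 start 72 bases apart on chromosome 1, and Col4a5 and Col4a6 start 1309 bases apart on chromosome X. Promoter windows from 250 bases before to 50 after the start were found in the RefSeq table (GRCm38.p6) for 35 of the 44 genes. The sequences below are the window shared by the type IV pair that was highest in endothelial-like and pericyte-like cells, and stretches upstream of the fibrillar, hemidesmosomal and multiplexin genes whose levels differed between the libraries. Capitals mark a GC box (GGGCGG, or CCGCCC on the other strand) or a TATA box (TATAAA), and each is written 5′ to 3′ on the strand of the gene, the shared window on that of Col4a2.

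Col4a1/Col4a2, chr8:11312801-11312830: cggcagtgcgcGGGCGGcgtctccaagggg

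Col3a1, chr1:45311418-45311537: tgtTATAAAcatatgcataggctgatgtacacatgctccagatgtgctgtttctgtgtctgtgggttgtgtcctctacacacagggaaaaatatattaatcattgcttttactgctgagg

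Col5a1, chr2:27886305-27886424: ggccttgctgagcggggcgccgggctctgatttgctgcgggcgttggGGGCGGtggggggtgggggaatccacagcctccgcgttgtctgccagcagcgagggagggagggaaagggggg

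Col17a1, chr19:47692095-47692162, minus strand: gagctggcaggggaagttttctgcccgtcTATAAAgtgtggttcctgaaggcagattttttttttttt

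Col18a1, chr10:77166549-77166650, minus strand: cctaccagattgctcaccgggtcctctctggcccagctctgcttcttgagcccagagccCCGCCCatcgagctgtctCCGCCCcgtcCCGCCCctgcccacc

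Col5a1 thus showed a GC box 73 bases upstream of its start, Col18a1 showed 3 of them, and the first bases of the TATA boxes stood at -117 in Col3a1 and -91 in Col17a1. Over both strands of the 35 member windows a GC box occurred in 22 (62.9%), against 38.2% of 27025 gene windows of the same length. The CCAAT box (CCAAT or ATTGG) was in 13 (37.1%, against 41.1%), the TATA box (TATAAA or TTTATA) in 5 (14.3%, against 15.7%) and the TCF/LEF letters CTTTGAT or ATCAAAG in 1, Col9a2 (2.86%, against 4.29%). None of these motifs contains another, although neighbouring GC boxes share letters in Col6a2 (first bases -15 and -11) and Col8a2 (-19 and -15). A match describes the window only.

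After the filter of the study (over 200 and under 7000 genes, under 15% mitochondrial UMIs) 10598 DoubleTg cells with a median of 16761 UMIs and 9492 TripleTg cells with a median of 20097 UMIs remained, and 30 barcodes occurred in both libraries. Cells were clustered within each library without the 44 collagens, and the 26 and 25 clusters were named from markers that held no collagen. Fibroblast-like cells numbered 961 in DoubleTg and 649 in TripleTg, pericyte-like 66 and 98, endothelial-like 276 and 243, basal-like 1870 and 1187, and luminal-like 4974 and 4849. The label prostate fitted the epithelial clusters, several of which were led by secretory genes such as Tgm4, but seminal vesicle-like cells (126 and 536) were also present and an unnamed TripleTg cluster of 704 cells was led by Hba-a1, Hbb-bt and Hbb-bs. The summed level of 8 seminal vesicle markers in fibroblast-like cells was 659 CPM in DoubleTg and 8855 CPM in TripleTg, as free RNA can give in droplets. The level of a collagen in immune-like cells therefore stands below for its background.

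Collagens held 0.0350% of all UMIs in DoubleTg (89830 UMIs) and 0.0433% in TripleTg (99350 UMIs). Fibroblast-, pericyte-, endothelial- and glial-like cells together gave 52.9% of these UMIs in DoubleTg and 76.8% in TripleTg, basal-like cells 29.5% and 11.1%, and luminal-like cells 15.1% and 8.49%. In fibroblast-like cells the collagen share of UMIs was 0.396% (95% Poisson interval 0.392 to 0.399) in DoubleTg and 0.875% (0.868 to 0.883) in TripleTg. Pericyte-like cells stood at 0.267% (0.255 to 0.279) and 1.36% (1.33 to 1.38), and endothelial-like cells at 0.268% (0.261 to 0.275) and 0.440% (0.432 to 0.449). In the basal layer the order was the opposite, with 0.103% (0.101 to 0.104) in DoubleTg and 0.0386% (0.0379 to 0.0393) in TripleTg. Luminal-like cells held 0.00683% and 0.00571%, which lay below the 0.0152% and 0.0131% of macrophage-like cells and the 0.00887% of DoubleTg T and NK-like cells. Cell by cell the median share moved the same way in the stroma, from 0.315% to 0.365% in fibroblast-like, 0.218% to 0.645% in pericyte-like and 0.173% to 0.274% in endothelial-like cells, although the fibroblast-like medians lay much closer together than the sums.

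**Figure D1:**
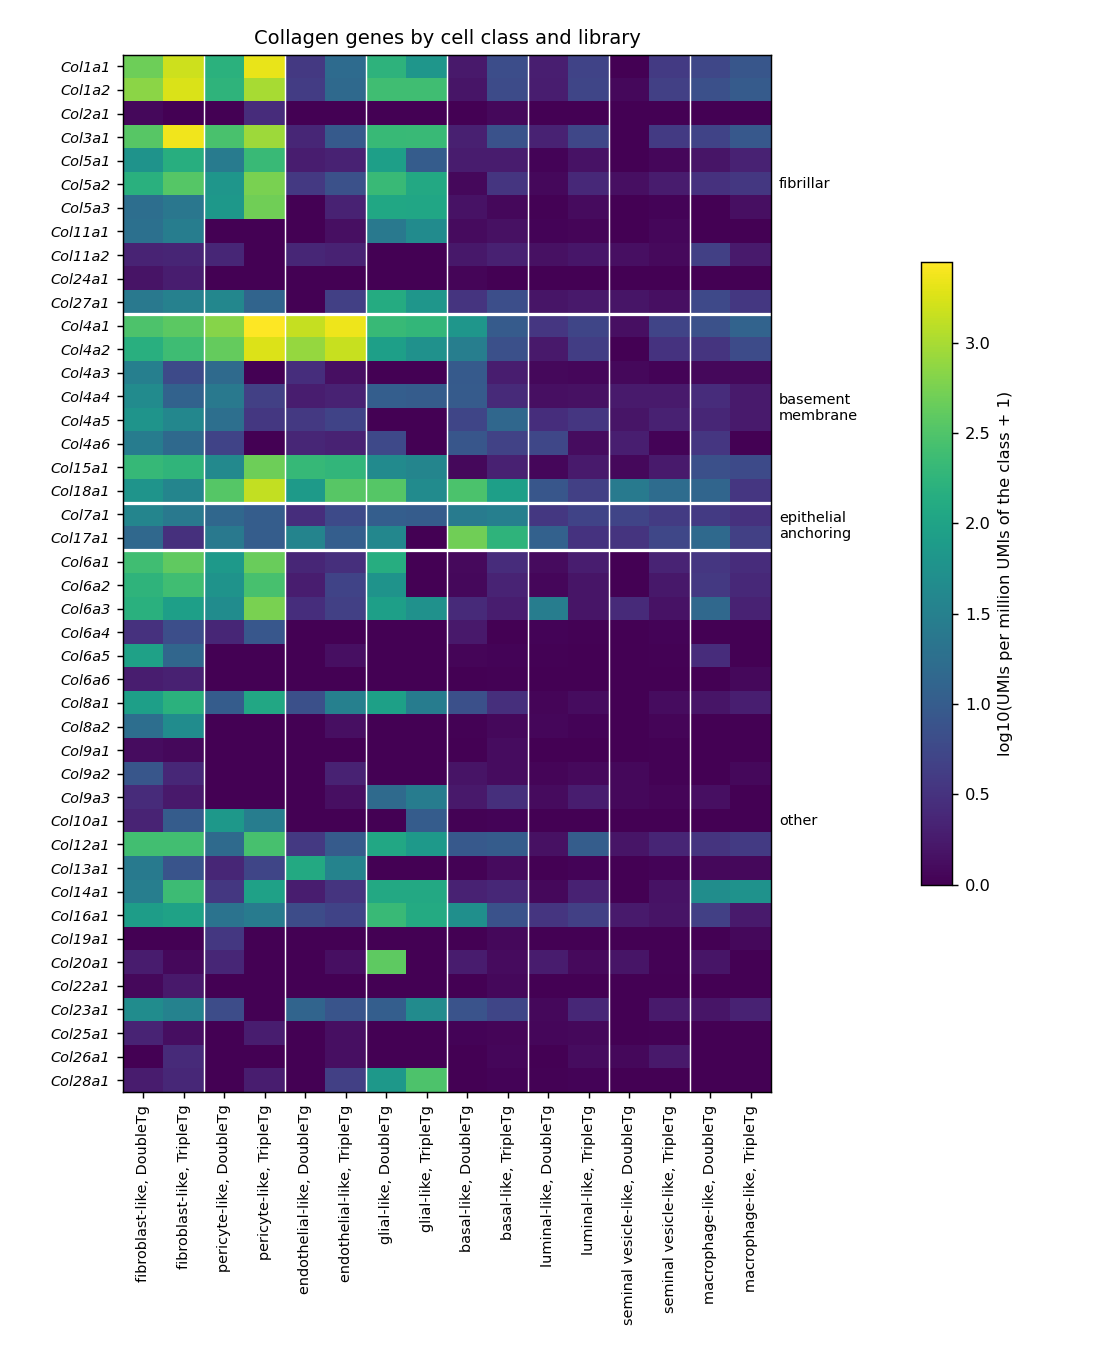
Level of each collagen (rows, grouped by family) in each named class of DoubleTg and TripleTg (columns), coloured by log10(CPM + 1) from dark (0) to yellow (highest). Fibrillar chains are brightest in fibroblast-like, pericyte-like and glial-like columns, the pair Col4a1 and Col4a2 also in endothelial-like columns (1400 and 2260 CPM of Col4a1), and Col17a1 in basal-like columns (497 and 175 CPM).

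The families differed in level between the classes. Fibrillar chains summed to 1813 CPM in DoubleTg and 6248 CPM in TripleTg fibroblast-like cells, but to 12.1 and 51.0 CPM in endothelial-like and 7.13 and 27.8 CPM in basal-like cells. Basement membrane chains summed to 2477 and 4236 CPM in endothelial-like cells, whose other families together stayed far below. Pericyte-like cells held both families, with 810 and 5258 CPM of fibrillar and 1525 and 6426 CPM of basement membrane chains. Fibroblast-like cells also held 872 and 888 CPM of basement membrane chains, and the few glial-like cells 1187 and 866 CPM of fibrillar and 699 and 334 CPM of basement membrane chains. In basal-like cells the anchoring pair led, at 523 and 205 CPM.

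Fibroblast-like cells formed 2 clusters in each library. Cluster 5 of DoubleTg (532 cells, led by Sult1e1, Myoc and Lum) was most like cluster 4 of TripleTg (495 cells, led by Apod, Lum and Mfap5), with a Pearson correlation of 0.818 across genes other than collagens. Cluster 11 of DoubleTg (429 cells, led by Wif1, Wnt2 and Cxcl14) was most like cluster 11 of TripleTg (154 cells, led by Rxfp1, Wnt2 and Tmem132c), at 0.862, although its correlation with cluster 4 of TripleTg was 0.817. Because DoubleTg cluster 11 held the smooth muscle genes Actg2 and Tagln, and no listed fibroblast marker, among its 10 leading genes, the libraries were compared cluster by cluster first. Later values for fibroblast-like cells that name no cluster are sums over both clusters, into which their mix enters.

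Between cluster 5 of DoubleTg and cluster 4 of TripleTg, 6 of 8 fibrillar chains at 10 CPM were at least 2-fold higher in TripleTg and 0 lower, while Col11a1 (0.90) and Col27a1 (-0.30) lay inside 2-fold. Col3a1, which partners collagen I in soft tissue fibres (chr1:45311538-45349706), stood at 249 CPM in DoubleTg and 2846 CPM in TripleTg, a log2 ratio of 3.52. Col1a1 (chr11:94936224-94953042) stood at 327 and 1810 CPM, a log2 ratio of 2.47 (95% interval 2.39 to 2.55). Its partner chain Col1a2 stood at 475 and 2105 CPM, a log2 ratio of 2.15. The collagen V chains, which nucleate fibrils and set their width, followed at 41.9 and 169 CPM for Col5a1 (2.01) and 114 and 400 CPM for Col5a2 (1.81). Col14a1, which binds fibril surfaces, stood at 45.9 and 288 CPM (2.65), and the network-forming Col8a1 and Col8a2 at log2 ratios of 1.85 and 2.13. Col4a1 and Col4a2 were higher as well, at 194 and 417 CPM (1.11) and at 86.8 and 268 CPM (1.62), and Col5a3 was just past 2-fold (1.01).

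Of the 27 members with a mean of at least 10 CPM in this pair of clusters, 11 were at least 2-fold higher in TripleTg and 6 at least 2-fold lower. Over all 7519 genes of that level the shares were 9.22% higher and 6.14% lower. The lower members were Col6a5, an alternative chain of collagen VI (102 and 13.99 CPM, log2 ratio -2.87), Col17a1 (20.2 and 1.78 CPM, -3.51), Col4a4 (-2.47), Col4a6 (-2.53), Col4a5 (-1.01) and the transmembrane Col23a1 (-1.07). The Col17a1 level of 20.2 CPM lay within the range of DoubleTg immune-like cells, which was 11.7 CPM in dendritic-like, 14.1 CPM in macrophage-like and 37.8 CPM in T and NK-like cells. Col6a3 stood just inside 2-fold at 207 and 105 CPM (-0.98), while its partner chains differed little, with log2 ratios of 0.56 for Col6a1 and 0.21 for Col6a2. Col12a1, a fibril-associated collagen, and the multiplexin Col15a1 also stayed inside 2-fold (0.31 and 0.50).

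In the second pair of clusters, of 7 fibrillar chains at 10 CPM, 1 was at least 2-fold higher in TripleTg, 0 were at least 2-fold lower and 6 lay inside 2-fold. In cluster 11 of DoubleTg and cluster 11 of TripleTg Col1a1 stood at 656 and 362 CPM (log2 ratio -0.86, 95% interval -1.01 to -0.70), Col1a2 at 920 and 508 CPM (-0.86) and Col3a1 at 461 and 292 CPM (-0.66). Col5a1 and Col5a2 were also inside 2-fold on the lower side, at -0.95 and -0.53. Of the 26 members at 10 CPM or more, 3 were at least 2-fold higher, against 5.66% of 7386 genes, and 7 were at least 2-fold lower, against 6.92%. Higher were the collagen VI chains Col6a1 (280 and 746 CPM, 1.41) and Col6a2 (203 and 565 CPM, 1.48), which form the microfibrils around cells, and the fibrillar Col27a1 (29.1 and 100.3 CPM, 1.78). Lower were Col8a1 (122 and 4.60 CPM, -4.72), Col6a5 (-3.52), Col6a3 (-2.48), Col12a1 (-1.77), Col4a3 (-1.58), Col4a1 (416 and 187 CPM, -1.16) and Col4a2 (206 and 99.3 CPM, -1.05). Here too Col6a3 and its partners Col6a1 and Col6a2 had opposite signs. The clusters of this pair differed in their markers, since the 7 smooth muscle markers summed to 4871 CPM in DoubleTg and 650 CPM in TripleTg and the 7 fibroblast markers to 6817 and 3429 CPM. In the first pair the same lists summed to 651 and 1061 CPM and to 10337 and 11179 CPM. The part of these shifts in the collagen values was not tested.

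**Figure D2:**
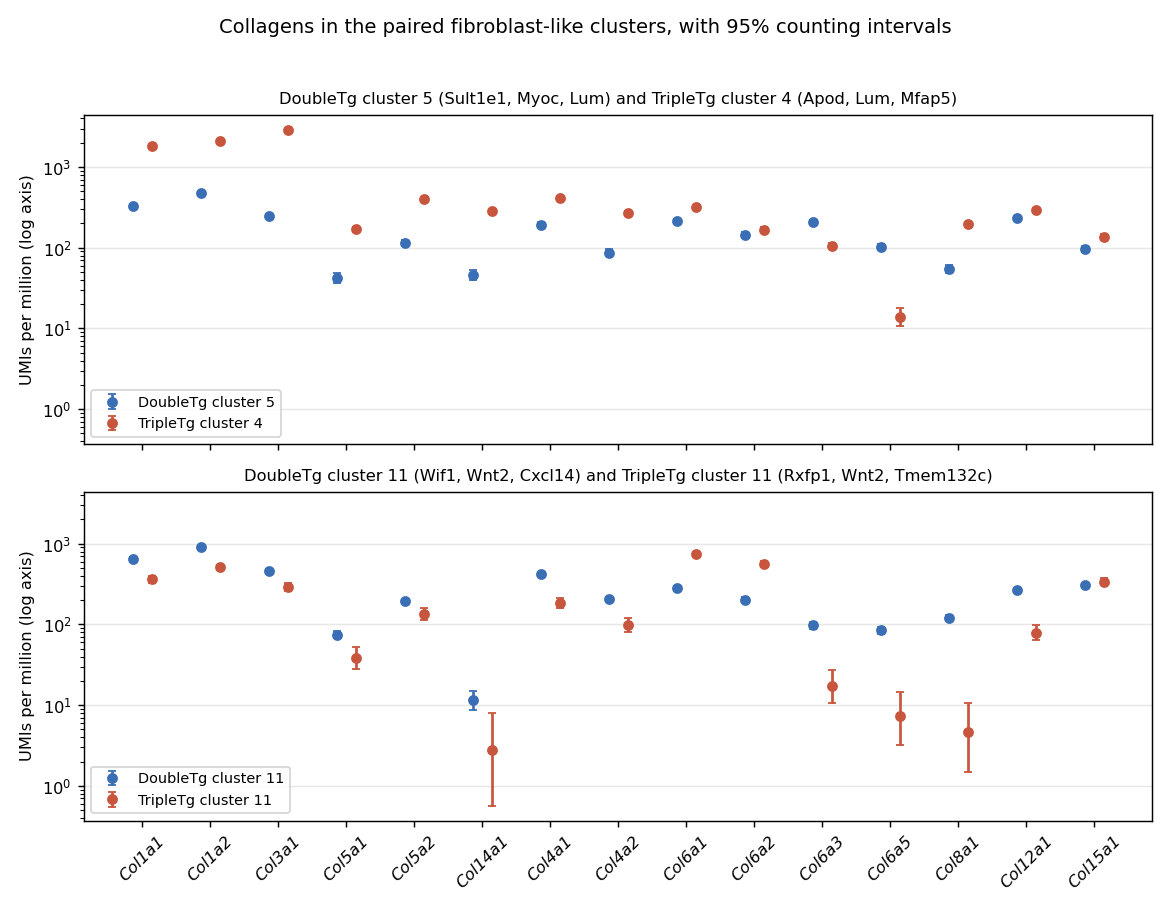
Level in CPM (log axis) of 15 collagens in the paired fibroblast-like clusters of DoubleTg (blue) and TripleTg (red), with 95% Poisson intervals for counting error. Col1a1, Col1a2 and Col3a1 reach 1810, 2105 and 2846 CPM in cluster 4 of TripleTg, while in cluster 11 they are lower in TripleTg than in DoubleTg.

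Summed over both clusters, 28 members reached 10 CPM, of which 7 were at least 2-fold higher in TripleTg fibroblast-like cells and 4 at least 2-fold lower. These counts depended on the clustering, since at Leiden resolution 2 they were 4 and 7. Col1a2 and Col5a2 fell under 2-fold at that resolution (log2 ratios of 0.92 and 0.73), with cells thinned to 2000 UMIs (0.99 and 0.86) and as a mean over cells (0.97 and 0.95), and Col5a1 at that resolution (0.87). Over all 7573 genes of that level the shares were 5.84% and 4.19%, with a median log2 ratio of 0.02 against 0.35 for the members. In these sums Col3a1 stood at 354 and 2349 CPM (log2 ratio 2.73, 95% interval 2.68 to 2.78), Col14a1 at 28.8 and 232 CPM (3.01, 2.83 to 3.20), Col1a1 at 490 and 1528 CPM (1.64, 1.59 to 1.69) and Col1a2 at 696 and 1794 CPM (1.37, 1.32 to 1.41). The DoubleTg Col14a1 level lay under that of macrophage-like cells, given below. Past 2-fold on the lower side were Col6a5 (93.5 and 12.7 CPM, -2.88), Col4a3 (29.8 and 5.01 CPM, -2.58), Col4a4 (44.5 and 11.1 CPM, -2.00, but -0.91 without the cluster that held smooth muscle genes) and Col13a1 (24.9 and 6.80 CPM, -1.87). The calls of Col4a3 and Col13a1 were also lost without that cluster, whereas that of Col6a5 stayed. Cluster 11 gave 429 of 961 DoubleTg and 154 of 649 TripleTg cells, so the mix of clusters enters these sums. Without the DoubleTg cluster that held smooth muscle genes 11 members were past 2-fold on the higher side, and Col6a3, Col6a5 and Col17a1 on the lower side. The share over all genes was not taken in that setting. The summed level of the 7 smooth muscle markers was 2747 CPM in DoubleTg and 981 CPM in TripleTg, and its part in these values was not tested.

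At equal depth the share of cells with a fibrillar transcript was higher in TripleTg for the first pair of clusters. Cells were thinned to 2000 UMIs, and those with fewer were left out, 162 of 532 in cluster 5 of DoubleTg, 97 of 495 in cluster 4 of TripleTg, and 27 of 429 and 1 of 154 in the clusters numbered 11. Col3a1 was then seen in 25.7% of cluster 5 of DoubleTg (95% exact interval 21.3 to 30.4) and 53.0% of cluster 4 of TripleTg (48.0 to 58.0), and Col1a1 in 35.1% (30.3 to 40.2) and 55.5% (50.5 to 60.5). In the 2 clusters numbered 11 the intervals overlapped, with Col3a1 in 34.3% (29.7 to 39.2) and 33.3% (25.9 to 41.4) and Col1a1 in 48.0% (43.0 to 53.0) and 41.2% (33.3 to 49.4). Unthinned, Col1a1 was seen in 50.2% and 62.6% of the first pair and 76.7% and 74.7% of the second. Over both clusters, thinned, Col3a1 was seen in 30.2% of DoubleTg (27.0 to 33.6) and 47.5% of TripleTg fibroblast-like cells (43.3 to 51.8). Col1a1 was seen in 41.8% (38.3 to 45.4) and 51.5% (47.3 to 55.8). The same measure gave 0.580% and 1.62% of macrophage-like cells for Col1a1, and 0 of 427 T and NK-like cells, whose exact upper limit is 0.860%. Median depths before thinning were 7978 and 5777 UMIs in fibroblast-like, 8531 and 9995.5 in macrophage-like and 6512.5 in T and NK-like cells.

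The balance between chains differed as well, in part by cluster. Per Col1a1 UMI, cluster 5 of DoubleTg held 0.762 Col3a1 UMIs (95% interval 0.706 to 0.821) and cluster 4 of TripleTg 1.57 (1.53 to 1.62), whereas the 2 clusters numbered 11 held 0.703 (0.666 to 0.743) and 0.805 (0.692 to 0.935). Col3a1 thus exceeded Col1a1 in cluster 4 of TripleTg alone among the 4. Col1a1 to Col1a2, the chains of collagen I, stood at 0.687 and 0.860 by UMI in the first pair and at 0.713 and 0.714 in the second. Col6a3 to Col6a1 was lower in TripleTg in both pairs, at 0.964 (0.884 to 1.05) and 0.333 (0.299 to 0.369) in the first and 0.348 (0.313 to 0.386) and 0.0234 (0.0140 to 0.0368) in the second. Over the 51 clusters of both libraries the log2 levels of Col1a1 ran with those of Col1a2 (Pearson 0.979), Col3a1 (0.975) and Col5a1 (0.921), and Col6a1 ran with Col6a2 (0.973) more closely than with Col6a3 (0.658). The clusters share 2 libraries, their free RNA and differing depths, so these correlations are a description.

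Pericytes wrap small vessels, and 1 cluster in each library was called pericyte-like, cluster 21 of DoubleTg (led by Rgs5, Gm13889 and Mustn1) and cluster 17 of TripleTg (led by Rgs5, Higd1b and Ndufa4l2). Among their 10 leading genes both held Rgs5 as the one gene of the pericyte list, beside Myh11 of the smooth muscle list in DoubleTg and Acta2 and Actg2 in TripleTg, so pericyte-like stands below for these 2 numbered clusters, and smooth muscle cells among them cannot be told apart from pericytes. Of the 22 members at 10 CPM or more, 16 were at least 2-fold higher in TripleTg, against 13.1% of 7586 genes, and 4 were at least 2-fold lower, against 13.2%. The median log2 ratio of all genes was 0.02. The higher members came from the fibrillar, basement membrane and other families.

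Col1a1 stood at 160 CPM in DoubleTg and 2120 CPM in TripleTg pericyte-like cells, a log2 ratio of 3.73 (95% interval 3.464 to 4.001). Col1a2 stood at 173 and 973 CPM (2.49, 2.23 to 2.76) and Col3a1 at 281 and 862 CPM (1.62, 1.40 to 1.84). By UMI Col1a1 stood to Col1a2 at 0.924 (0.717 to 1.19) in DoubleTg and 2.18 (2.03 to 2.34) in TripleTg, so it exceeded its partner in TripleTg, and Col3a1 per Col1a1 was 1.75 and 0.407, the reverse of the order in the first pair of fibroblast-like clusters. All 3 collagen V chains were higher, Col5a3 from 66.9 to 500.5 CPM (2.90), Col5a2 from 63.0 to 571 CPM (3.18) and Col5a1 from 26.2 to 218 CPM (3.06). Collagen VI followed with Col6a3 at 45.9 and 565 CPM (3.62, 3.13 to 4.16), Col6a1 at 69.5 and 460 CPM (2.73) and Col6a2 at 57.7 and 276 CPM (2.26), so that all 3 chains were past 2-fold together. The fibril-associated Col12a1 stood at 14.4 and 278 CPM (4.27, 3.41 to 5.28), Col14a1 at 2.62 and 93.7 CPM (5.16, from 2 and 109 UMIs), and Col8a1 at 9.18 and 117 CPM (3.67). Col4a1, Col4a2, Col15a1 and Col18a1, the basement membrane members, are given below.

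Lower in TripleTg pericyte-like cells were Col27a1 (38.1 and 12.0 CPM, -1.66), Col4a4 (23.6 and 3.44 CPM, -2.78), Col17a1 (23.6 and 9.46 CPM, -1.32) and Col10a1 (66.9 and 27.5 CPM, -1.28). Col10a1, known from hypertrophic cartilage, rested on 51 UMIs in 3 DoubleTg cells, 26 of them in 1 cell, and it overlaps Nt5dc1 on the other strand. Each level of Col17a1 lay within the range of the immune-like cells of its own library, 11.7 to 37.8 CPM in DoubleTg and 3.43 to 29.2 CPM in TripleTg, though above the macrophage-like 14.1 and 3.43 CPM. The Col17a1 call was lost with cells thinned to 2000 UMIs, as a mean over cells and without the top 5% of doublet scores. Col16a1 (19.7 and 25.8 CPM) and Col7a1 (13.1 and 9.46 CPM) were inside 2-fold.

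Few cells carried much of this signal. A single TripleTg pericyte-like cell held 1770 collagen UMIs among its 23338, 11.2% of the collagen of its class, and a single DoubleTg cell held 10.4%. Without the cell of most collagen in each library Col1a1 stood at a log2 ratio of 3.71, Col1a2 at 1.92, Col3a1 at 1.44 and Col14a1 at 3.72 (1.78 to 6.82), all still past 2-fold. The Col3a1 call was lost, however, with cells thinned to 2000 UMIs and as a mean over cells, and the Col8a1 call when thinned. At 2000 UMIs Col1a1 was seen in 22.4% of 58 DoubleTg (12.5 to 35.3) and 55.9% of 93 TripleTg cells (45.2 to 66.2). The 7 smooth muscle markers summed to 7892 and 4173 CPM, with Myh11 at 814 and 165 CPM, the 6 pericyte markers to 4349 and 6300 CPM, and the 8 endothelial markers to 66.9 and 468 CPM, mostly Flt1. The fibroblast list stood at 185 and 237 CPM, with Pdgfra at 0 and 7.74 CPM and Lum at 1.31 and 2.58 CPM. The part of these shifts in the collagen values was not tested.

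**Figure D3:**
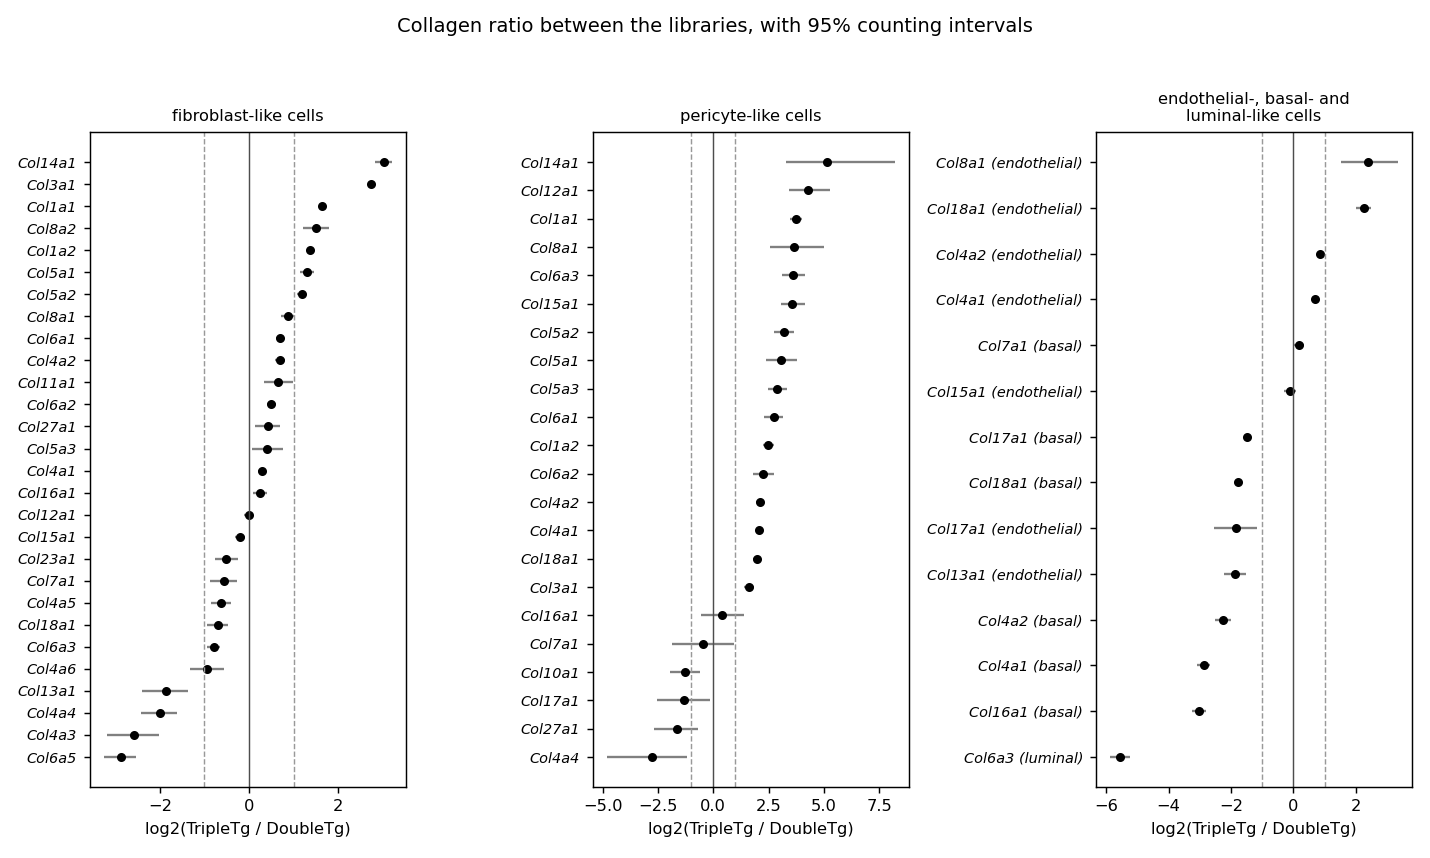
Log2 ratio of TripleTg over DoubleTg for every collagen with a mean of at least 10 CPM, with 95% intervals for counting error and dashed lines at 2-fold, in fibroblast-like cells, pericyte-like cells, and endothelial-like, basal-like and luminal-like cells together. Of the pericyte-like points 16 lie past 2-fold on the higher side, and of the basal-like points 5 lie past it on the lower side.

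Among basement membrane chains, Col4a1 and Col4a2, the ubiquitous pair of the type IV network, had their highest levels in endothelial-like and pericyte-like cells. In endothelial-like cells Col4a1 stood at 1400 CPM in DoubleTg and 2260 CPM in TripleTg (log2 ratio 0.69, 95% interval 0.63 to 0.75), and Col4a2 at 794 and 1428 CPM (0.85, 0.76 to 0.93). In pericyte-like cells the difference was larger, with Col4a1 at 663 and 2786 CPM (2.07, 1.94 to 2.21) and Col4a2 at 424 and 1809 CPM (2.09, 1.92 to 2.27). Fibroblast-like cells stood at 304 and 372 CPM of Col4a1 and 146 and 235 CPM of Col4a2. Basal-like cells, which share the epithelial side of the sheet, stood at 63.7 and 8.65 CPM of Col4a1 (-2.88, -3.08 to -2.69) and 28.4 and 5.95 CPM of Col4a2 (-2.25). The macrophage-like level of Col4a1 was 6.20 and 11.6 CPM, so that the TripleTg basal-like level was at background.

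The levels of the pair ran in parallel across classes. Col4a1 to Col4a2 by UMI stood at 1.76 and 1.58 in endothelial-like, 1.56 and 1.54 in pericyte-like, 2.09 and 1.58 in fibroblast-like and 2.25 and 1.45 in basal-like cells. Over the 51 clusters their log2 levels had a Pearson correlation of 0.984, against 0.836 for Col4a3 with Col4a4 and 0.741 for Col4a5 with Col4a6. Of all Col4a1 UMIs endothelial-like cells gave 35.0% in DoubleTg and 47.3% in TripleTg, and fibroblast-like cells 33.6% and 16.8%. At 2000 UMIs Col4a1 was seen in 75.8% of endothelial-like cells in both libraries (69.1 to 81.6 and 69.5 to 81.4), after 82 of 276 and 28 of 243 shallower cells were left out, and unthinned in 77.5% and 87.7%. In macrophage-like cells that share was 1.16% and 3.46%.

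**Figure D4:**
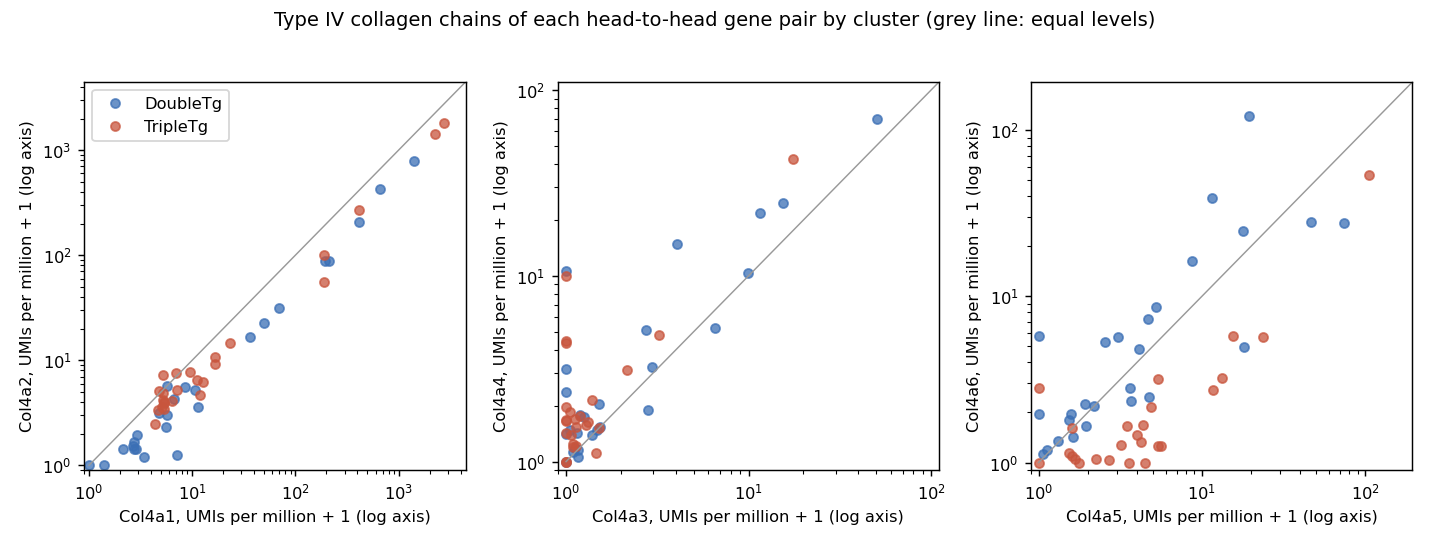
Level of one chain against that of its head-to-head neighbour for the 3 type IV gene pairs, 1 point per cluster of DoubleTg or TripleTg, both axes as CPM + 1 on a log scale. Points of Col4a1 and Col4a2 lie along a line (Pearson 0.984 over 51 clusters), those of Col4a5 and Col4a6 scatter more (0.741).

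The restricted type IV chains, known from glomerular and epithelial basement membranes, were low and, averaged by class, highest in fibroblast-like cells of DoubleTg. Single clusters stood higher for Col4a5 and Col4a6, as given here and below. Col4a3 and Col4a4 stood there at 29.8 and 44.5 CPM, against 5.01 and 11.1 CPM in TripleTg. Col4a5 stood at 59.4 and 38.5 CPM (-0.63) and Col4a6 at 26.7 and 13.95 CPM (-0.94). Within the second pair of clusters both chains were higher in TripleTg, Col4a5 at 73.2 and 104 CPM (0.51) and Col4a6 at 26.4 and 52.4 CPM (0.99). In basal-like cells Col4a5 stood at 4.18 and 13.2 CPM and no other restricted chain passed 10 CPM.

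Col18a1, the multiplexin that releases endostatin (chr10:77052178-77166548), was spread over several compartments. Endothelial-like cells stood at 74.7 CPM in DoubleTg and 355 CPM in TripleTg (log2 ratio 2.25, 95% interval 2.01 to 2.50), and pericyte-like cells at 339 and 1340 CPM (1.99, 1.79 to 2.18). Basal-like cells were opposite, at 296 and 87.3 CPM (-1.76, -1.83 to -1.70). The basal-like part of all Col18a1 UMIs was 71.9% in DoubleTg and 40.2% in TripleTg, where pericyte-like cells gave 25.1%. The share of endothelial-like cells with a Col18a1 UMI at 2000 UMIs was 15.98% (11.1 to 21.9) and 38.6% (32.1 to 45.5). Its relative Col15a1 held level in endothelial-like cells, at 202 and 186 CPM (-0.11, -0.30 to 0.07), but stood at 40.7 and 485 CPM in pericyte-like cells (3.58, 3.05 to 4.15).

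Of the 7 members at 10 CPM or more in endothelial-like cells, 2 were at least 2-fold higher in TripleTg, against 8.22% of 7521 genes, and 2 at least 2-fold lower, against 6.9%. Besides Col18a1 the higher one was Col8a1, at 5.85 and 30.5 CPM (2.38, 1.53 to 3.36). The lower ones were Col13a1, a transmembrane collagen whose highest class this was, at 122 and 33.6 CPM (-1.86, -2.22 to -1.51), and Col17a1, at 34.6 and 9.66 CPM (-1.84). Col17a1 is an epithelial gene, and its endothelial-like levels lay within the immune-like ranges of 11.7 to 37.8 CPM in DoubleTg and 3.43 to 29.2 CPM in TripleTg, though above the macrophage-like 14.1 and 3.43 CPM. Its call was lost, with levels of 8.18 and 9.66 CPM (log2 ratio 0.24), when Scrublet doublets, marked in DoubleTg only, were left out. Without the top 5% of doublet scores of each library its levels were 5.37 and 3.55 CPM (-0.60). As a mean over cells they were 13.8 and 4.37 CPM (-1.66), where only the 10 CPM minimum was missed. Col13a1 and Col18a1 stayed past 2-fold in all of these. With cells thinned to 2000 UMIs 4 members were higher (Col18a1, Col1a1, Col1a2 and Col3a1), and Col8a1 was not among them. The 8 endothelial markers summed to 7549 and 5905 CPM and the 6 neutrophil markers to 13.5 and 1914 CPM in these classes, and their part was not tested.

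Col17a1 (chr19:47646344-47692094) was the collagen of basal-like cells, which gave 82.9% of its UMIs in DoubleTg and 88.7% in TripleTg. Its level there was 497 CPM in DoubleTg and 175 CPM in TripleTg, a log2 ratio of -1.50 (95% interval -1.55 to -1.46). At 2000 UMIs it was seen in 51.0% of 1823 DoubleTg (48.7 to 53.3) and 25.6% of 1173 TripleTg basal-like cells (23.1 to 28.2), and in 1.87% of T and NK-like cells. Median depths were 12635 and 21613 UMIs in basal-like cells. Col7a1, the anchoring fibril collagen, did not go with it: it stood at 26.0 and 29.3 CPM (0.18, 0.03 to 0.32), and in 4.94% and 6.39% of cells. By UMI the ratio of Col17a1 to Col7a1 was thus 19.2 (17.7 to 20.7) in DoubleTg and 5.98 in TripleTg basal-like cells. In DoubleTg the interval of this ratio held the basal-like value in T and NK-like cells (23.7, 10.6 to 65.6) and endothelial-like cells (19.3, 7.22 to 72.4), but not in macrophage-like cells (4.87, 2.77 to 9.14) or luminal-like cells (4.12, 3.74 to 4.54).

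Of the 6 members at 10 CPM or more in basal-like cells 5 were at least 2-fold lower in TripleTg, against 12.1% of 6729 genes, and 0 were at least 2-fold higher, against 11.7%. The median of all genes here was a log2 ratio of -0.11, and relative to it Col17a1 stood at -1.39. Beside Col17a1, Col18a1 and the Col4a1 and Col4a2 pair, the lower ones included Col16a1, a fibril-associated collagen, at 51.4 and 6.30 CPM (-3.03, -3.26 to -2.80). The 5 basal markers, all detected in both libraries, summed to 14302 CPM in DoubleTg and 4746 CPM in TripleTg. That shift was uneven, since Krt15 stood at 7205 and 797 CPM and Trp63 at 16.8 and 61.9 CPM, and its part in the collagen values was not tested.

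The basal-like clusters of each library lay on the same side. DoubleTg cluster 16 (1393 cells, led by Lgals7, Krt5 and Krt14) stood at 541 CPM of Col17a1 and 317 CPM of Col18a1, and cluster 2 (477 cells, led by Shh, Sult5a1 and Dlk2) at 241 and 173 CPM. In TripleTg, cluster 8 (837 cells, led by Ifi202b, Gsdmc2 and Uchl1) stood at 212 and 79.4 CPM, cluster 20 (326 cells, led by Mt4, Igfbp2 and Jakmip2) at 91.8 and 102 CPM, and the dividing cluster 24 (24 cells, led by Krt75, Hmmr and Bub1) at 206 and 112 CPM. The DoubleTg range of Col17a1 hence lay above the TripleTg range, though 241 and 212 CPM were near each other. For Col7a1 the order was mixed, with 28.0 and 14.3 CPM in DoubleTg clusters 16 and 2 against 28.0, 32.6 and 26.9 CPM in TripleTg clusters 8, 20 and 24. Col16a1 stood at 55.7 and 26.4 CPM against 5.60 to 6.51 CPM. Among luminal-like clusters Col17a1 was highest in DoubleTg clusters 3 (72.9 CPM) and 24 (57.2 CPM), where the 5 basal markers summed to 2849 and 1274 CPM, and their part was not tested.

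**Figure D5:**
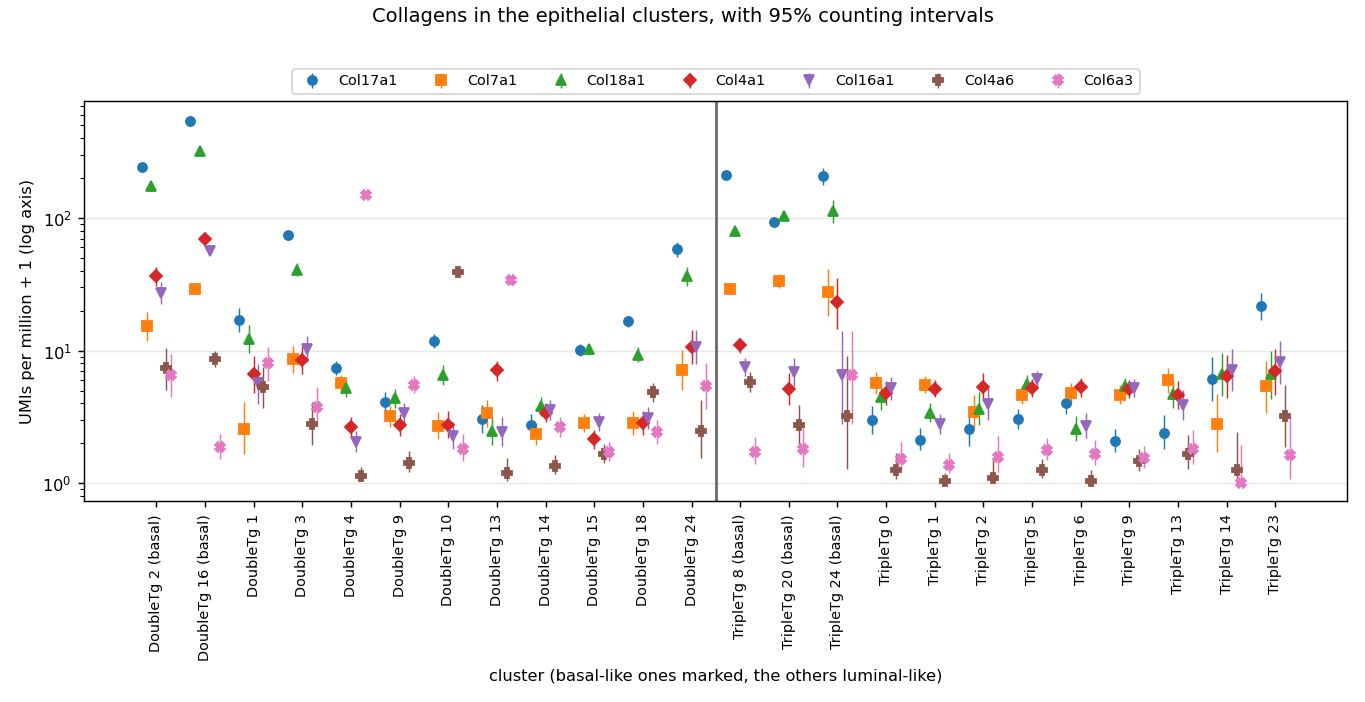
Level of 7 collagens as CPM + 1 (log axis, with 95% intervals for counting error) in each of the 24 epithelial clusters, basal-like and luminal-like, of DoubleTg and TripleTg. Col17a1 and Col18a1 stand highest in basal-like clusters of DoubleTg (541 and 317 CPM in cluster 16), Col7a1 lies between 14.3 and 32.6 CPM in all basal-like clusters, and Col6a3 stands out in a single luminal-like cluster of DoubleTg (148 CPM).

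In luminal-like cells 1 member reached a mean of 10 CPM. It was Col6a3 (chr1:90765923-90843971), at 27.7 CPM in DoubleTg (5471 UMIs) and 0.588 CPM in TripleTg (87 UMIs), a log2 ratio of -5.56 (95% interval -5.88 to -5.25). Of 6822 genes 9.98% were at least 2-fold lower there and 9.79% at least 2-fold higher. The gene was concentrated in cluster 4 of DoubleTg (546 cells, led by Scgb2b27, Ibsp and Sbpl), with 148 CPM from 4628 UMIs in 407 cells, the highest of them holding 2.44%. Cluster 13 followed at 32.8 CPM. No TripleTg luminal-like cluster had Scgb2b27, Ibsp or Sbpl among its 10 leading genes, so the ratio of the class compares different clusters. Its partners Col6a1 and Col6a2 were at 0.25 and 0.14 CPM in DoubleTg luminal-like cells, so by UMI Col6a3 exceeded Col6a1 109-fold, against 0.617-fold in fibroblast-like cells. Luminal-like cells gave 74.2% of all Col6a3 UMIs of DoubleTg, against 20.3% from fibroblast-like cells. The T and NK-like and macrophage-like levels, both 13.6 CPM, were also raised, with 35 of the 51 T and NK-like UMIs in 1 cell. Cluster 4 was deep, with a median of 55691 UMIs, and the call depended on the 10 CPM minimum. With each cell weighted alike the mean of both libraries was 9.54 CPM and the log2 ratio -4.93, and thinned to 2000 UMIs they were 9.09 CPM and -5.09. The TripleTg level lay under the macrophage-like level of that library (1.14 CPM), so no ratio was left once that was subtracted.

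A further luminal-like cluster held Col4a6 (chrX:141165403-141474076) and, at a lower level, its neighbour Col4a5. DoubleTg cluster 10 (507 cells, led by Gm37223, 9530053A07Rik and C1s2) stood at 38.1 CPM of Col4a6, with 692 UMIs in 264 cells. Col4a5 stood there at 10.45 CPM (190 of the 369 UMIs of the class), against 0.0639 to 3.71 CPM in the other DoubleTg luminal-like clusters. Col12a1 stood at 0.45 CPM in DoubleTg and 9.25 CPM in TripleTg luminal-like cells. The TripleTg level was above that of macrophage-like (2.86 CPM) and dendritic-like cells (7.29 CPM, from 4 UMIs) of the same library. Neutrophil-like cells stood at 13.5 CPM, but the 7 luminal markers summed to 14238 CPM in them, near the 16459 CPM of luminal-like cells. Fibrillar chains in luminal-like cells were low, Col1a1 at 0.98 and 3.90 CPM and Col3a1 at 1.13 and 4.34 CPM, under the macrophage-like levels of 4.46 and 7.43 CPM and of 3.88 and 8.005 CPM. The DoubleTg macrophage-like values rest on few cells, with 15 of 23 Col1a1 UMIs and 10 of 20 Col3a1 UMIs in 1 cell each.

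In macrophage-like cells the only member with a mean of both libraries of at least 10 CPM was Col14a1, at 48.5 and 56.8 CPM (log2 ratio 0.23, 95% interval -0.02 to 0.48), from 126 and 148 cells. Over 6770 genes 6.88% were at least 2-fold higher and 6.75% at least 2-fold lower, around a median of 0.11. In DoubleTg this level was above that of fibroblast-like cells (28.8 CPM).

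Glial-like cells, only 39 and 25, were the class of highest level for Col20a1 and Col28a1. Col20a1, a fibril-associated collagen, stood at 392 CPM in DoubleTg (82 UMIs in 18 cells) and at 0 UMIs in TripleTg. The 4974 DoubleTg luminal-like cells held 164 of its UMIs, at 0.829 CPM. Col28a1, known from peripheral nerve, stood at 67.0 and 307 CPM (34 UMIs in 11 TripleTg cells). These cells also held Col16a1 (215 and 126 CPM), Col27a1 (129 and 63.1 CPM), Col11a1 (23.9 and 45.1 CPM), Col9a3 (14.4 and 27.1 CPM) and Col18a1 (345 and 45.1 CPM). Several of these rest on 5 UMIs or fewer, and their libraries were not compared.

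Col8a2, Col11a1 and Col23a1 were seen in fibroblast-like cells at lower levels than the main fibrillar chains. Over both clusters Col8a2 stood at 16.5 and 46.3 CPM, Col11a1 at 17.7 and 27.9 CPM and Col23a1 at 45.9 and 32.2 CPM. Altogether 33 members reached 10 CPM in a named class of either library. The other 11 did not: Col6a4, Col9a2, Col11a2, Col19a1, Col2a1, Col26a1, Col25a1, Col6a6, Col24a1, Col22a1 and Col9a1 peaked between 0.315 and 7.74 CPM. These include the cartilage chains Col2a1, Col9a1 and Col9a2. By class, 13 members were highest in pericyte-like cells (12 of them in TripleTg), 12 in fibroblast-like (7 in DoubleTg, 5 in TripleTg), 6 in glial-like and 1 each in basal-like and endothelial-like cells. The same counts were not taken over all genes, and the glial-like peaks of Col9a3 and Col11a1 rested on 3 and 5 UMIs. Col7a1, counted among the fibroblast-like, reached 35.6 CPM in DoubleTg fibroblast-like cells, above basal-like cells in either library.

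Genes that fold, modify, trim and crosslink collagen (30 listed) were higher with the chains in part. In pericyte-like cells 23 passed 10 CPM, 13 were at least 2-fold higher in TripleTg (against 13.1% of all genes) and 1, Lox, lower (against 13.2%), with a median log2 ratio of 1.20. Serpinh1, the collagen chaperone HSP47, stood at 283 and 819 CPM (1.53, 1.32 to 1.75), the prolyl hydroxylase subunits P4ha1 at 40.7 and 129 CPM (1.67) and P4ha2 at 15.7 and 36.1 CPM (1.20). The crosslinking oxidases split, with Loxl2 at 64.3 and 482 CPM (2.91, 2.49 to 3.36), Lox at 64.3 and 12.0 CPM (-2.42) and Loxl1 at 18.4 and 16.3 CPM. Pcolce, which enhances cleavage of the procollagen tail, stood at 80.0 and 192 CPM (1.26), and the lysyl hydroxylase Plod2 stayed inside 2-fold (0.93).

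In fibroblast-like cells the list differed less between the libraries than the fibrillar chains. Of 23 listed genes 3 were at least 2-fold higher (Pcolce2, Loxl1 and Loxl3), against 5.84% of all genes, and 0 lower, against 4.19%, with a median of 0.29. Serpinh1 stood at 412 and 467 CPM (0.18), P4ha1 at 41.6 and 46.0 CPM (0.15), P4ha2 at 13.5 and 21.1 CPM (0.64), Plod2 at 65.9 and 95.5 CPM (0.54), Lox at 322 and 332 CPM (0.05), Loxl2 at 51.9 and 66.9 CPM (0.37) and Pcolce at 523 and 400 CPM (-0.39). Loxl1, which also crosslinks elastin, was past 2-fold at 73.6 and 155 CPM (1.08). P4ha3 lay under 10 CPM, at 0.306 and 5.90 CPM. Between clusters 5 and 4, 10 of 23 were at least 2-fold higher and 0 lower, against 9.22% and 6.14% of all genes. Between the 2 clusters numbered 11, 0 of 22 were higher and 2 lower (Pcolce and Lox), against 5.66% and 6.92%.

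In endothelial-like cells 3 of 14 such genes at 10 CPM were at least 2-fold higher (Plod1, P3h4 and Fkbp10), against 8.22% of all genes, and 0 were lower. In luminal-like cells 2 of 5 were lower (P4hb and Mia3), against 9.98%, and 0 were higher. In basal-like cells 1 of 8 was higher, against 11.7%, and 2 were lower, against 12.1%. Of these Serpinh1 stood at 41.8 and 16.5 CPM (-1.34) and Pcolce at 1.98 and 19.0 CPM (3.27). Of 10 collagen receptor genes 5 reached 10 CPM in fibroblast-like cells, where 1 was at least 2-fold higher (Itga1, against 5.84% of all genes) and 0 lower. In pericyte-like cells 2 of 6 were higher (Itga1 and Mrc2, against 13.1%) and 1 lower (Ddr2, against 13.2%). In endothelial-like cells 0 of 3 were higher and 1 lower (Itga1, against 6.9%), and in luminal-like and basal-like cells 0 of 3 passed 2-fold either way. Between clusters 5 and 4 of the fibroblast-like cells 2 of 5 were higher (Itga1 and Mrc2, against 9.22%), and between those numbered 11 0 of 5 passed 2-fold. Mrc2, which takes up collagen, stood at 2.62 and 23.2 CPM in pericyte-like cells, from 2 and 27 UMIs. The receptor kinase Ddr2 stood at 68.0 and 67.8 CPM in fibroblast-like (0.00) and 147 and 56.8 CPM in pericyte-like cells (-1.37). Its epithelial relative Ddr1 stood at 54.3 and 33.0 CPM in basal-like cells (-0.72) and 60.3 and 40.3 CPM in luminal-like cells (-0.58). Itga2 stood at 69.7 and 46.3 CPM in basal-like cells (-0.59) and Itga11 at 5.80 and 8.77 CPM in fibroblast-like cells. In macrophage-like cells 1 of 3 was higher in TripleTg, Lair1, an immune receptor for collagen, against 6.88% of all genes.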

How the data were processed

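The deposited matrices hold UMI counts per gene and cell, not normalized. The authors made them with Cell Ranger 6.0.2, per the labels, on mm10 with both human transgenes added, whereas the matrix header of DoubleTg names version 6.1.1. Deposited were 12072 DoubleTg barcodes (302424122 UMIs) and 9492 TripleTg barcodes (229655259 UMIs). The filter of the study left 87.8% of the former (71 cells had too few genes, 421 too many and 1042 too much mitochondrial RNA) and all of the latter, and the cell numbers do not all equal those the study states. Ambiguous reads between similar genes were handled by the authors' counting, which was not changed.

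Cells were clustered per library without the collagens (scanpy 1.11.5 and leidenalg 0.10.2, Leiden resolution 1), and clusters were named "-like" from marker lists. Doublets were removed only by the upper gene limit, since Scrublet, tried as an alternative, marked no TripleTg cell. UMIs were summed per class and divided by the class total (CPM, a count of molecules that is not divided by gene length). Intervals are 95%, exact Poisson for levels, Clopper-Pearson for shares and conditional binomial for ratios (scipy 1.17.1), and cover counting error only. Ratios are TripleTg over DoubleTg on the log2 scale, given as a call where the mean of both libraries reached 10 CPM and the fold reached 2, and no test between libraries was possible with 1 library each. Shares of cells were taken after thinning to 2000 UMIs, without cells under that number. The steps were tested on simulated data. All 44 members are named, those under 10 CPM in every named class with their range, and of the maturation and receptor lists the counts with a fixed set of examples. Members, lists and comparisons were chosen with earlier results of these data known.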

Additional observations from a re-analysis of the deposited data

Results flagged for a closer look

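Several collagens were past 2-fold in opposite directions in 2 classes, and none of these differences was tested, since each library is alone in its genotype. Col18a1 was higher in TripleTg endothelial-like and lower in basal-like cells, with log2 ratios 4.01 apart. Col4a1 and Col4a2 were higher in pericyte-like and lower in basal-like cells, 4.95 and 4.35 apart. The TripleTg basal-like level of Col4a1 lay under the macrophage-like level, so that its distance is uncertain. Col6a3 was higher in pericyte-like and lower in luminal-like cells, 9.18 apart, although its TripleTg luminal-like level (0.588 CPM) lay under the macrophage-like 1.14 CPM and the luminal-like clusters of the libraries differ, so that this distance is uncertain. Between the pairs of fibroblast-like clusters, 5 with 4 and 11 with 11, the log2 ratios lay 2.26 apart for Col4a1, 2.68 for Col4a2 and 6.58 for Col8a1, higher in the former pair and lower in the latter.

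Signal also lay outside the named classes. In DoubleTg cluster 12, which was left unnamed (449 cells, led by Gm26917, Lars2 and Tcaf3), Col4a6 stood at 121 CPM from 178 UMIs in 54 cells. Col6a3 stood there at 69.3 CPM, with 54 of its 102 UMIs in 1 cell.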

How the results depend on the processing

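The fibroblast-like collagen share, 0.396% in DoubleTg, was 0.388% at Leiden resolution 0.5, 0.525% at resolution 2, 0.415% without Scrublet doublets, 0.435% thinned to 2000 UMIs, 0.409% as a mean over cells, 0.294% without the cluster with smooth muscle markers, 0.479% without the top 5% of Scrublet scores and 0.387% without the cell of most collagen. In TripleTg, 0.875% became 0.852% under 10% mitochondrial UMIs, 0.781% thinned, 0.738% as a mean over cells, 1.03% without the top 5% of scores and 0.854% without the cell of most collagen. Of the counts past 2-fold, resolution 2 gave 4 higher and 7 lower fibroblast-like members (7 and 4 as reported), and 11 were higher without the smooth muscle cluster. Shares over all genes were not taken under the alternative settings. A minimum of 1 CPM gave 7 lower in fibroblast-like, 7 lower in pericyte-like, 11 higher in endothelial-like, 7 higher and 8 lower in basal-like and 5 higher and 4 lower in luminal-like cells. A minimum of 50 CPM gave 1 lower in fibroblast-like, 0 lower in pericyte-like, 1 higher and 1 lower in endothelial-like, 2 lower in basal-like and 0 lower in luminal-like cells. Thinning gave 4 higher in endothelial-like, 1 higher in basal-like and 0 lower in luminal-like cells. A mean over cells gave 1 lower endothelial-like and 0 lower luminal-like member, leaving out Scrublet doublets or the top 5% of scores 1 lower endothelial-like, and subtracting the macrophage-like level 0 lower luminal-like. The causes were not tested.

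Of the 371 alternative values that could be taken for 31 log2 ratios none changed sign and 8 dropped under 2-fold, all in fibroblast-like cells: Col1a2 (0.92, 0.99 and 0.97 at resolution 2, thinned and as a mean over cells), Col5a2 (0.73, 0.86 and 0.95 under the same), Col5a1 (0.87 at resolution 2) and Col4a4 (-0.91 without the smooth muscle cluster). A setting gave no value, and was not counted, where the mean fell under 10 CPM or subtraction left no level. Calls lost in this way included Col6a3 in luminal-like cells, thinned, as a mean over cells and after subtraction. Others were Col4a3 and Col13a1 in fibroblast-like cells without the smooth muscle cluster. Outside these 31, Col17a1 in endothelial-like cells changed sign without Scrublet doublets (0.24, against -1.84), a setting that removed DoubleTg cells only. Without the top 5% of scores of each library its ratio was -0.60. In pericyte-like cells Col3a1 lost its call thinned and as a mean over cells, and Col8a1 when thinned. Col17a1 lost its pericyte-like call thinned, as a mean over cells and without the top 5% of scores. Resolution 0.5 left no DoubleTg pericyte-like class, and subtraction of the T and NK-like level was not run because TripleTg had no such class. The settings on scores, shared barcodes, the macrophage-like level and the cell of most collagen were chosen after seeing the data. No paired analysis was possible because the groups share fewer than 2 replicate numbers. The pericyte-like values rest on 66 and 98 cells and the glial-like on 39 and 25, and depth limits what a small difference there can show.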

Other observations

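Interferon-led luminal-like cluster 1 of DoubleTg (117 cells, led by Ifit3b, Ifit1bl1 and Ifit3) held 182 Col3a1 UMIs in 16 cells and 152 Col1a1 UMIs in 16 cells. Unnamed cluster 7 of DoubleTg (608 cells, led by Spink1, Sbp and Fam25c) stood at 32.7 CPM of Col6a3.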
